A study of Homo sapiens with 12 samples.

Results

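The mitochondrial ribosomal protein genes (MRP genes) were taken as every gene whose symbol is MRPL or MRPS followed by a number and at most 1 letter. The rule found 77 of the 14828 genes listed, 49 with MRPL and 28 with MRPS symbols. MRPL stands for the large subunit and MRPS for the small subunit, but MRPS18A and MRPS30 belong to the large subunit. MRPS36 is now placed in the 2-oxoglutarate dehydrogenase complex. The cells were 22Rv1, an established human prostate cancer line, transduced with a lentiviral Tet-On vector and selected with puromycin, so that doxycycline induced either a nontargeting shRNA (shNT) or 1 of 2 shRNAs against CENPA, the centromeric histone H3 variant (shCENPA1 and shCENPA2). All 3 groups, the control included, received doxycycline at 2 µg/ml for 72 h. Polyadenylated RNA was sequenced from 2 libraries per group, and each library was run in lanes 7 and 8. The lanes were averaged, so that n = 2 libraries per group throughout.

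Human mitochondria translate a handful of proteins, all of them subunits of the respiratory chain and ATP synthase, on a ribosome of their own. Its ribosomal RNAs are encoded by mitochondrial DNA, whereas every protein of the ribosome is encoded in the nucleus, made in the cytosol and imported. Some of these proteins descend from bacterial ribosomal proteins and others exist only in mitochondria. In tumor cells the comparison asks whether loss of a centromeric histone, and the slower division that can follow, is accompanied by a change in this housekeeping machinery.

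CENPA mRNA was measured first as a check of the labels. Its log2 RPKM (reads divided by gene length and library size) came to 2.46 and 2.18 for shNT, 0.50 and 0.58 for shCENPA1, and -0.47 and -0.41 with shCENPA2. All 4 knockdown libraries were below both controls. Libraries held 79172294 to 133074655 reads on genes. All 8 prostate epithelial markers examined were listed, with KLK3 the lowest at -0.48 in shNT. Of 9 stromal, immune and endothelial markers 6 had no row, while VIM stood at 2.18, COL1A1 at 0.03 and DCN at -3.05 in shNT. In that order they stood at 1.83, 0.12 and -1.11 with shCENPA1, and at 1.36, 0.15 and -1.57 with shCENPA2. KLK3 stood at -1.25 and -2.12 with these shRNAs. Of the 8 epithelial markers, 3 were above the shNT mean with shCENPA1 and 2 with shCENPA2. Because these are bulk RNA samples, fewer expressing cells and less RNA per cell cannot be told apart. The labels do not say whether the 2 libraries of a group came from separate cultures, so that p-values measure only the spread between these libraries.

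MRP mRNAs spanned more than 2 orders of magnitude per unit of gene length. The highest in shNT was MRPS35, a mitochondria-specific protein of the small subunit, at 6.53 and 6.45 log2 RPKM. MRPL51, a mitochondria-specific protein of the large subunit, followed at 6.36 and 6.31, and MRPS34, another small subunit protein found only in mitochondria, stood at 6.39 and 6.17. The ranges of MRPL51 and MRPS34 overlapped, so that their order is not set by these libraries.

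At the other end, MRPL38, a component of the central protuberance, was listed at -0.64 and -0.66 in the shNT libraries. MRPL46, which lies in the same part of the large subunit, stood at -0.43 and -0.08. MRPS6, a homologue of bacterial S6, was listed at 0.39 and 0.35. Lengths are those the authors divided by, as recovered from the deposited values (15602 bases for MRPS6). Which exons they take in is not given in the sources used here. A gene given a longer length appears lower at the same number of reads. Annotated exons of MRPL38 share 1373 bases with another gene on the same strand, and those of MRPL46 share 724 bases. Exons of MRPS6 share 265 bases with SLC5A3 and 294 bases with another gene, also on the same strand. Such sharing was found for 15 members, and whether it lowered their counts or ranks was not tested. The median member had 19.27 RPKM with shNT, 16 members were under 10 RPKM and 8 were over 50 RPKM. Even the member with the fewest reads had 199 of them in its poorest library, and the median of the lowest counts was 4519 reads.

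**Figure D1:**
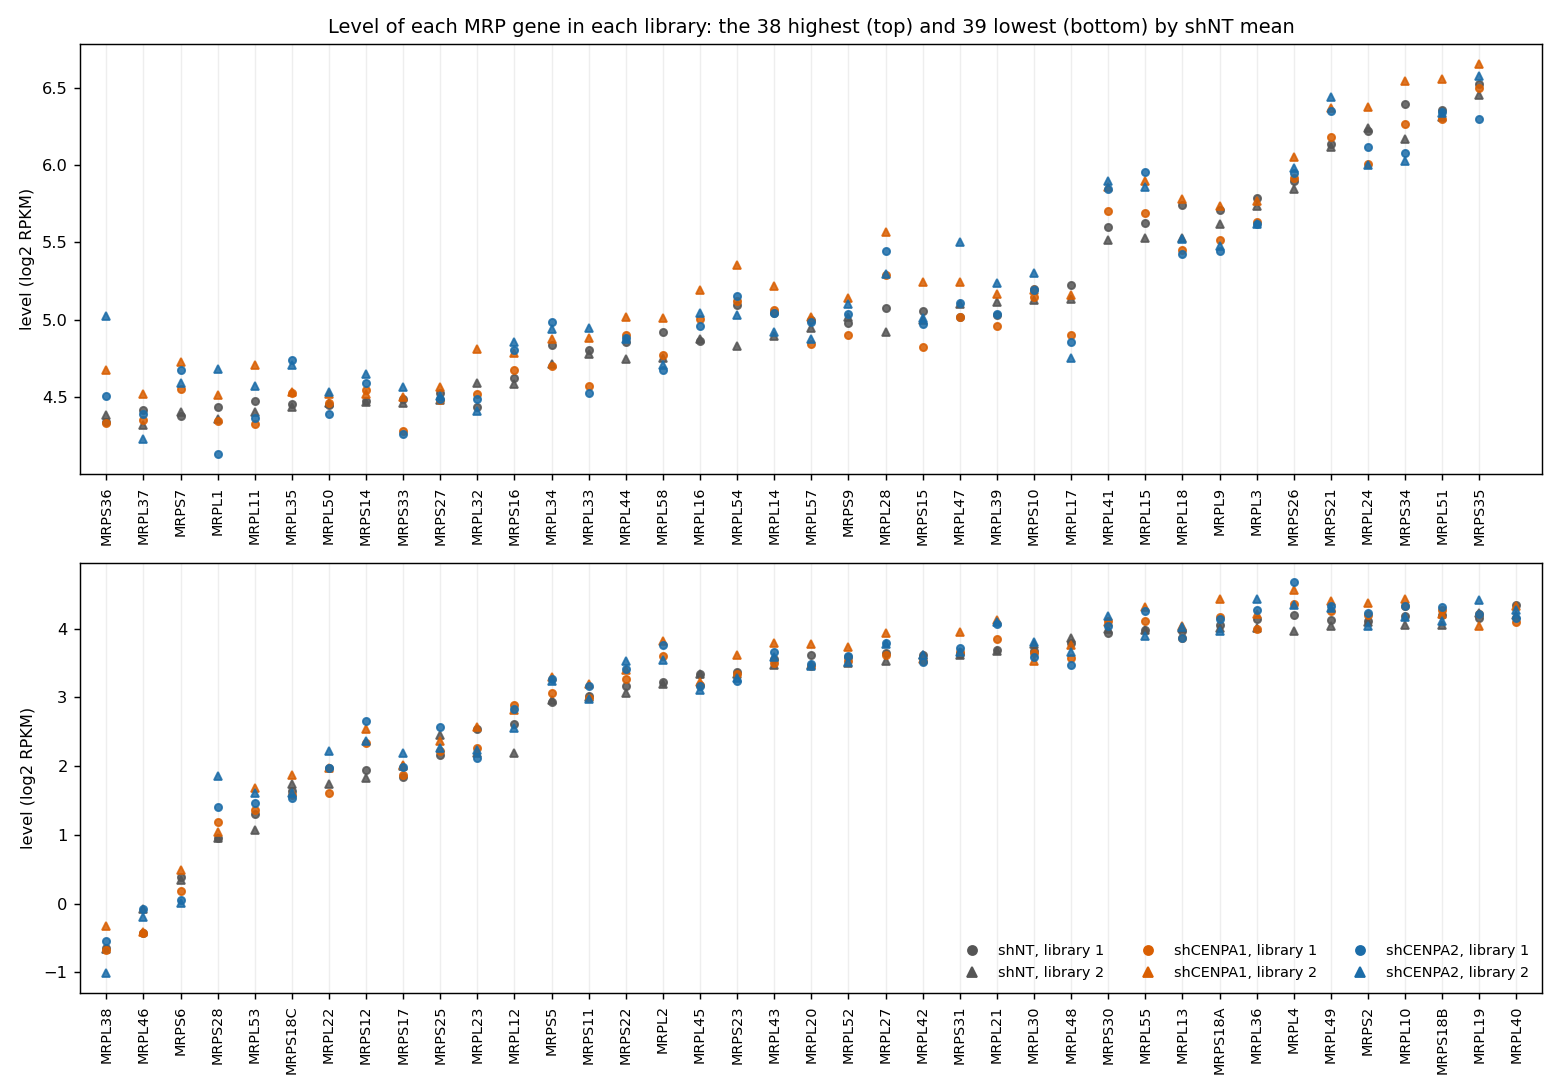
Level of the 77 MRP genes in each of 6 libraries (vertical axis, log2 RPKM), ordered by the shNT mean, with the 38 highest in the top panel and the 39 lowest in the bottom panel, which have different vertical scales. Colors mark the shRNA and symbols the library. For most genes the 6 points lie close together compared with the distance between genes, from MRPL38 (shNT mean -0.65) to MRPS35 (6.49).

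MRP mRNAs changed little after CENPA knockdown. No member passed the test with a change beyond 2-fold, whereas 2.65% of all 14624 genes tested did with shCENPA1 and 6.13% with shCENPA2. A gene was called at an adjusted p under 0.05 from limma, with Benjamini-Hochberg adjustment over all genes tested. With shCENPA1, 0 of 77 members were lower, against 4.45% of all genes. With the same shRNA 2 members were higher, which is 2.6% of members and close to the 2.69% of all genes. An unadjusted limma p under 0.05, in either direction, was found for 13 members with shCENPA1 and 19 with shCENPA2. The share of all genes under that limit was not counted, so these numbers cannot be read as many or few.

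With shCENPA2, 1 member was lower, or 1.3% of members, where 10.5% of all genes were. Higher were 8 members, or 10.4%, where 8.05% of all genes were. Without shNT library 1 that count was 1, without shNT library 2 it was 0, and without either shCENPA2 library it was 3. The share of members called higher was therefore near that of all genes with either shRNA, and the share called lower was below it. Both comparisons use the same shNT libraries. In both, 2 members were called higher (2.37% of all genes) and 0 were called lower (4.13% of all genes). Between shCENPA2 and shCENPA1, 0 members were lower and 0 higher, where 1.03% and 0.39% of all genes were. The unadjusted p from limma was under 0.05 for 3 members (MRPS28, MRPS34 and MRPL35), again without a count over all genes.

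A lack of calls could come from imprecision, so the width of the intervals was examined. The 95% interval of the log2 fold change reached 0.244 to either side of the estimate in the median member. For shCENPA1 it lay wholly within -1 and 1 for 77 of 77 members, and within -0.5 and 0.5 for 63 of them (81.8%, against 49.0% of all genes). For shCENPA2 the corresponding counts were 76 (98.7%, against 81.5%) and 55 (71.4%, against 43.4%). The exception was MRPS28. For 76 members a change of 2-fold or more with either shRNA thus lay outside the interval. Members were more highly expressed than most genes, with a median log2 RPKM of 4.27 with shNT against 2.36 for all genes tested. The fit let the spread vary with level, and the part of level in these shares was not tested.

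Ordering was examined without a test as well. All 4 knockdown libraries lay above both shNT libraries for 22 members (28.6%), where 20.3% of all genes did so. They lay below both for 2 members (2.6%), where 20.5% of all genes did. These 2 were MRPL45, which sits at the rim of the exit tunnel, and MRPL48 of the central protuberance. MRPL45 stood at 3.34 and 3.34 with shNT, 3.18 and 3.23 with shCENPA1, and 3.16 and 3.11 with shCENPA2. Neither passed the test (MRPL45 adjusted p = 0.435 and 0.159, MRPL48 limma adjusted p = 0.422 and 0.129).

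**Figure D2:**
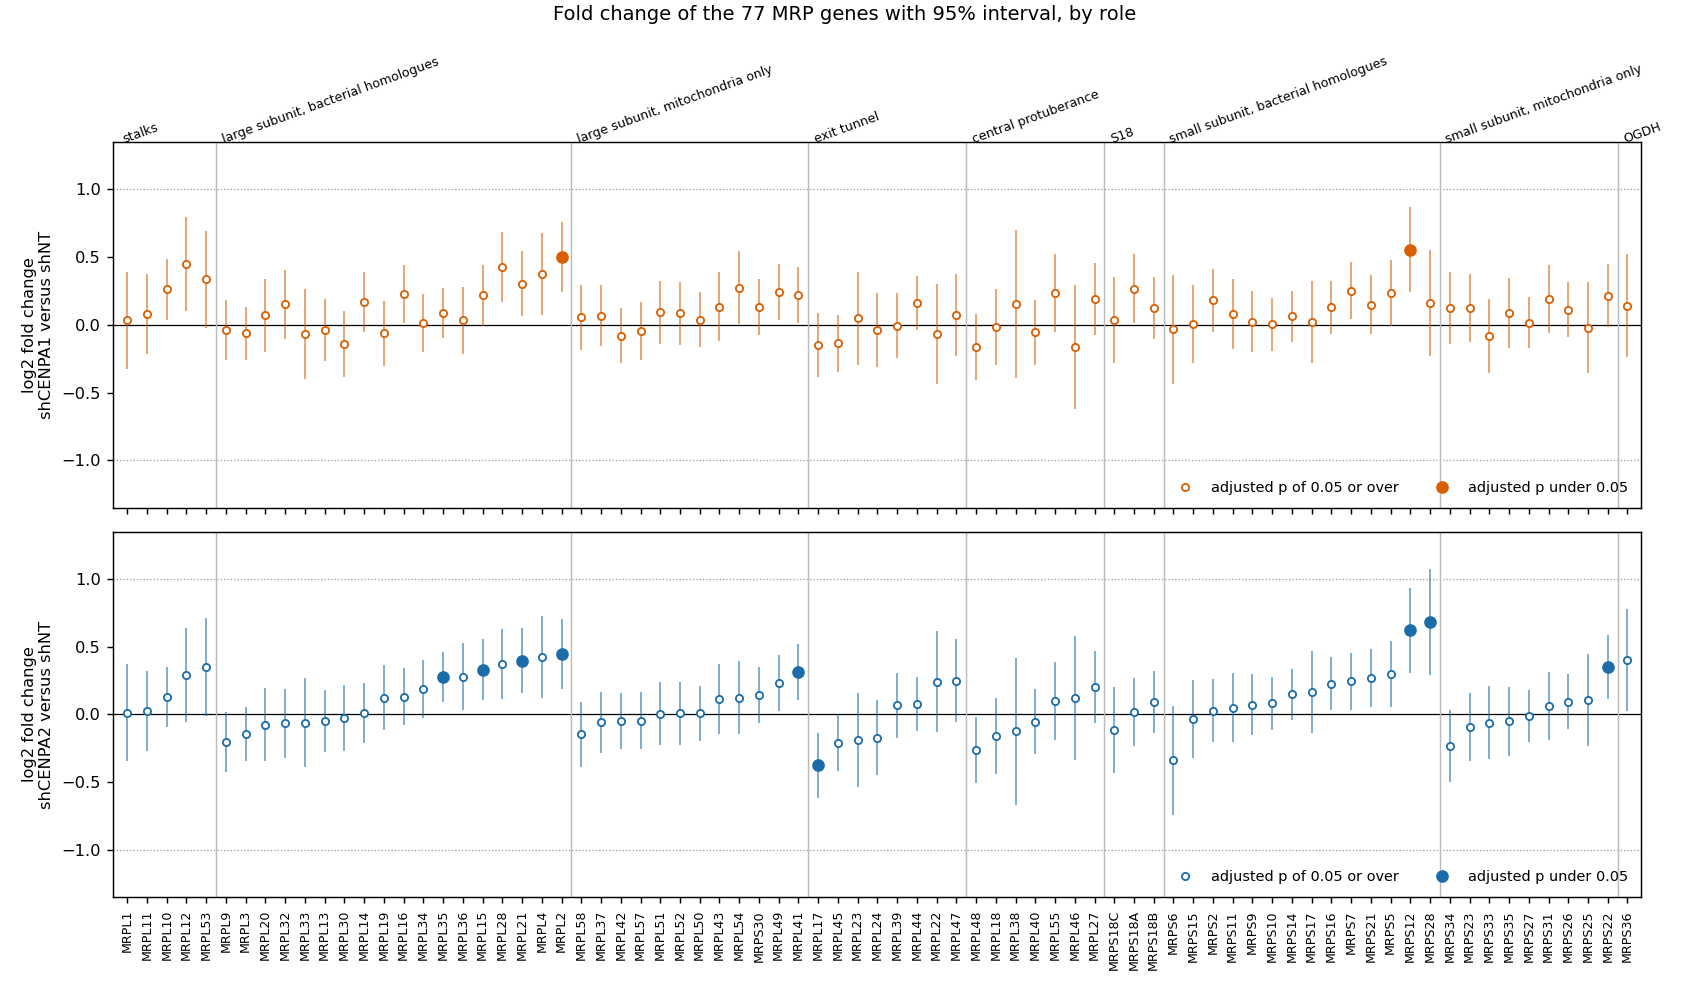
Log2 fold change of each MRP gene against shNT (vertical axes) with shCENPA1 (top) and shCENPA2 (bottom), grouped by role in the ribosome, where OGDH stands for the 2-oxoglutarate dehydrogenase complex. Points are limma estimates from 2 libraries per group, bars are 95% intervals, filled points have an adjusted p under 0.05, and dotted lines mark 2-fold. All points lie between -0.38 and 0.68, and only the bar of MRPS28 with shCENPA2 crosses a dotted line.

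Across members the median came to a log2 fold change of 0.085 with shCENPA1, where 57 of 77 were above 0, and 0.072 with shCENPA2, where 50 were. Over all genes the medians were 0.003 and 0.012, and 7391 and 7547 of 14624 genes were above 0. The signs were positive with both shRNAs for 45 members, negative with both for 15 and opposite for 17. Agreement of signs was not counted over all genes, and both comparisons share the shNT libraries. Relative to the shNT mean, the median member stood at -0.02 and 0.18 in the 2 shCENPA1 libraries, and at 0.07 and 0.08 in the 2 shCENPA2 libraries. The median with shCENPA1 thus rested on library 2: without that library it was -0.02, and without library 1 it was 0.18.

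Library 2 of shCENPA1 was higher than library 1 for 70 of 77 members (90.9%), with a median difference of 0.21 on the log2 scale. Among all genes 54.0% were higher in library 2. The same held for 97.1% of 35 genes of complex I, the first enzyme of the respiratory chain, and for 98.7% of 78 genes of cytosolic ribosomal proteins, so that the shift was not confined to MRP genes. Mitochondrially encoded transcripts took 6.16% of reads in library 1 and 8.43% in library 2 of shCENPA1, against 8.13% and 6.65% with shNT and 6.17% and 6.11% with shCENPA2. The part of these differences in the MRP values was not tested.

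The MRP genes together took 0.483% and 0.481% of reads with shNT, 0.490% and 0.533% with shCENPA1, and 0.510% and 0.517% with shCENPA2. Each knockdown library was above both controls on this scale. As a share of reads on nuclear genes alone the values were 0.526% and 0.515% with shNT, 0.522% and 0.583% with shCENPA1, and 0.543% and 0.550% with shCENPA2, and library 1 of shCENPA1 then lay between the controls. Genes of the cytosolic ribosome had medians of 0.003 and -0.215 with shCENPA1 and shCENPA2, with 1 and 3 of 78 genes called lower and 0 called higher. Genes of complex I had medians of 0.181 and 0.310, with 0 and 11 of 35 called higher and 0 called lower. The median of the MRP genes lay between those of the other 2 groups with both shRNAs, and no test was made of these differences.

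**Figure D3:**
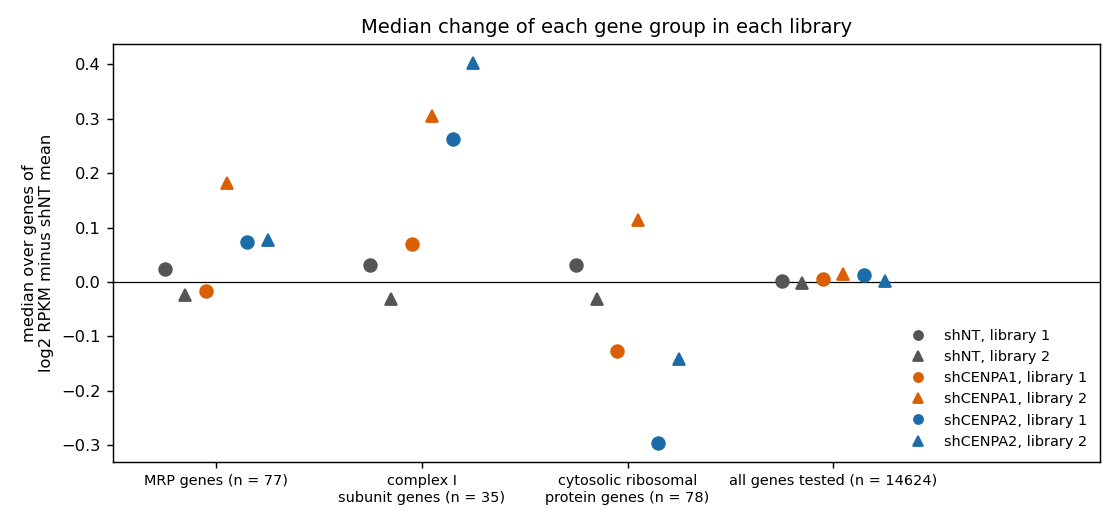
Median over genes of log2 RPKM minus the shNT mean (vertical axis) in each library for the 77 MRP genes, 35 complex I subunit genes, 78 cytosolic ribosomal protein genes and 14624 genes tested. Points are single libraries, with no error bar. Library 2 of shCENPA1 lies above library 1 in the first 3 groups, and the shCENPA2 libraries lie at 0.07 and 0.08 for MRP genes.

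MRPL2 and MRPS12 were the members called with both shRNAs. MRPL2, homologous to bacterial L2 near the peptidyl transferase center, is encoded on the minus strand of chromosome 6 (43054029 to 43059438, GRCh38). Its log2 RPKM was 3.22 and 3.19 with shNT, 3.60 and 3.82 with shCENPA1, and 3.76 and 3.55 with shCENPA2. All 4 knockdown libraries were above both controls, and the 2 knockdown groups overlapped. The log2 fold change was 0.50 (standard error, SE, 0.11, limma adjusted p = 0.030) with shCENPA1 and 0.45 (SE 0.11, adjusted p = 0.024) with shCENPA2, or 41.6% and 36.4% higher.

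In the annotation, exons of MRPL2 share 126 bases with exons of KLC4 on the opposite strand and 633 bases with an unnamed coding gene on the same strand. KLC4, a kinesin light chain gene, had log2 fold changes of 0.56 (limma adjusted p = 0.054) and 0.69 (adjusted p = 0.011). The libraries were strand-specific, but the strand setting of the counting is not given in the sources used here, and a part of these reads in the MRPL2 values was not tested.

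MRPS12, homologous to bacterial S12 at the decoding center, lies on the plus strand of chromosome 19 (38930944 to 38933168, GRCh38). Its log2 RPKM was 1.94 and 1.83 with shNT, 2.33 and 2.55 with shCENPA1, and 2.65 and 2.36 with shCENPA2. The lowest knockdown library was above the highest control by more than the gap between the controls. The log2 fold change was 0.55 (SE 0.14, limma adjusted p = 0.045) with shCENPA1 and 0.62 (SE 0.14, adjusted p = 0.014) with shCENPA2. These calls rest on 668 to 1530 reads per library. The calls of both genes with shCENPA1 were lost when either shNT library or either shCENPA1 library was left out, when 0 members were called higher with that shRNA (largest limma adjusted p = 0.194 for MRPL2 and 0.313 for MRPS12). With shCENPA2, MRPL2 was not called without shNT library 1 (limma adjusted p = 0.105), shNT library 2 (0.136) or shCENPA2 library 1 (0.107). MRPS12 was not called with shCENPA2 without shNT library 2 (0.0948) or shCENPA2 library 1 (0.0655), nor with lanes treated as correlated replicates (0.0605). With shCENPA1, MRPS12 kept its call in 5 of the 9 settings that left out no library, and lost it with lanes as correlated replicates (0.131), with 1 added to RPKM (0.0517), with voom on the recovered reads (0.0504) and with the library number as a block (0.0688).

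The promoter of MRPS12 is shown because the gene passed with both shRNAs and its sequence was at hand, unlike that of MRPL2. It covers chr19:38930694-38930993 (plus strand, RefSeq, GRCh38.p14), from 250 bases before the start to 50 bases after the start of the gene. Capitals mark the letters CCAAT, which nuclear factor Y binds, and CCGGAAG, a core bound by ETS factors such as GABP:
MRPS12: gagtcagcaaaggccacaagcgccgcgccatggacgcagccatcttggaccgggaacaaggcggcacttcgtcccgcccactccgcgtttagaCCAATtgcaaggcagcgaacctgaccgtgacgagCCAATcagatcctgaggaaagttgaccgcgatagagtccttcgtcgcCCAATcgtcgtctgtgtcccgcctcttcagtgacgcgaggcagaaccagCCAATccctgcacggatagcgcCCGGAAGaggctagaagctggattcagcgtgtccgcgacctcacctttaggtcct
Counted from the start of the gene, CCAAT on the strand shown begins at -157, -123, -76 and -27, and CCGGAAG begins at -5.

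**Figure D4:**
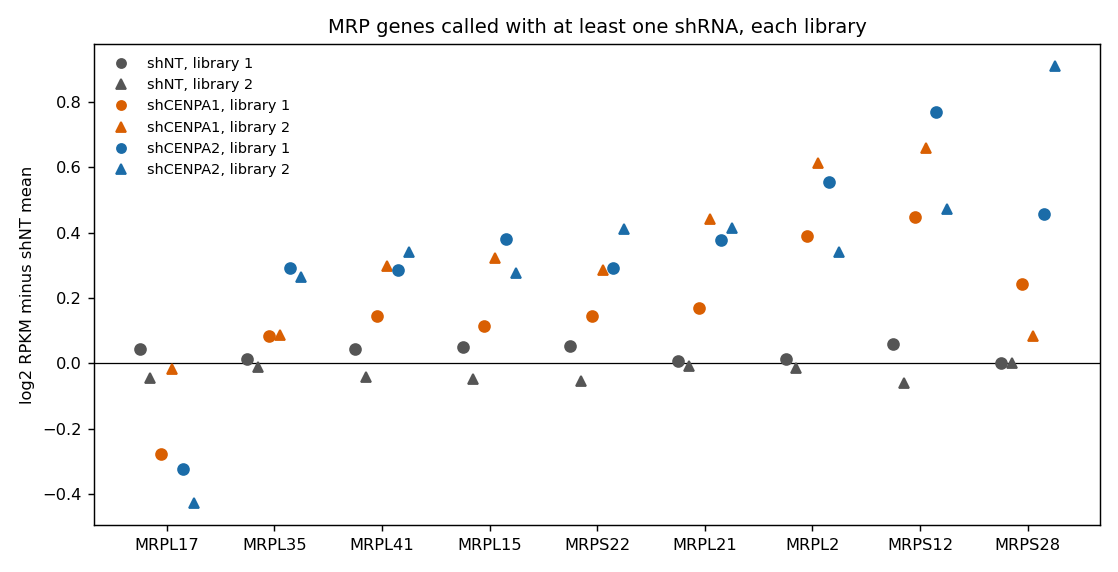
Log2 RPKM minus the shNT mean (vertical axis) in each library for the 9 MRP genes called with at least 1 shRNA, ordered by the change with shCENPA2. Points are single libraries. MRPL17 has both shCENPA2 points below the controls, and for the other 8 genes all 4 knockdown points lie above both shNT points.

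Beyond these, 7 members were called with shCENPA2 alone, and whether any of them differed between the shRNAs was tested directly. MRPS28, a small subunit protein, showed the largest change. Its log2 RPKM was 0.95 and 0.95 with shNT, 1.19 and 1.03 with shCENPA1, and 1.41 and 1.86 with shCENPA2. The log2 fold change with shCENPA2 was 0.68 (SE 0.17, limma adjusted p = 0.024), or 60.7% higher. Against shCENPA1 the difference was 0.52 (SE 0.17) and was not called (limma adjusted p = 0.227). The shCENPA2 libraries lay further apart from each other, by 0.45, than the shNT libraries, so that the size of this change is poorly set. Without shCENPA2 library 2 it was 0.46 (limma adjusted p = 0.0895), and without shNT library 1 or 2 the limma adjusted p was 0.095 and 0.0995. Of its annotated exon bases, 650 are shared with another coding gene on the same strand that has no row.

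MRPL17, which lines the rim of the exit tunnel, was the member called lower. Its log2 RPKM was 5.22 and 5.13 with shNT, 4.90 and 5.16 with shCENPA1, and 4.86 and 4.75 with shCENPA2. Both shCENPA2 libraries were below all others. With shCENPA1, library 1 was below both controls and library 2 lay between them. The log2 fold change was -0.38 (SE 0.11, limma adjusted p = 0.037) with shCENPA2 and -0.15 (SE 0.11, adjusted p = 0.458) with shCENPA1. The call was lost with median-centred libraries (limma adjusted p = 0.0521) and without any 1 of the shNT or shCENPA2 libraries (0.0620 to 0.230). Among the 68 members with a promoter sequence, MRPL17 alone had the palindrome bound by nuclear respiratory factor 1 (NRF1), shown in capitals in its promoter at chr11:6683291-6683590 (minus strand, RefSeq, GRCh38.p14):
MRPL17: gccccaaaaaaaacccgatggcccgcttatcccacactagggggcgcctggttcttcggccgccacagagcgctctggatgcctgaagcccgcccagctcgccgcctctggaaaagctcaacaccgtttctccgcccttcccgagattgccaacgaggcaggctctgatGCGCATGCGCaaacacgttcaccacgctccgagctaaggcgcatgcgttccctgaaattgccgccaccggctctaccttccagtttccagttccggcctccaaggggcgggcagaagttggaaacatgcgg
The palindrome begins at -81 from the start of the gene.

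The remaining 5 were higher by 21.2% to 31.7%. MRPL21, a homologue of bacterial L21, had log2 RPKM of 3.69 and 3.67 with shNT, 3.85 and 4.12 with shCENPA1, and 4.06 and 4.10 with shCENPA2 (log2 fold change 0.40, limma adjusted p = 0.030). MRPS22, a mitochondria-specific small subunit protein, stood at 3.17 and 3.06, then 3.26 and 3.40, then 3.41 and 3.52 in the same order of groups (0.35, adjusted p = 0.044). In each of these the lowest knockdown library exceeded the highest control. All 5 genes lost the call without any 1 of the shNT or shCENPA2 libraries, where log2 fold changes lay between 0.26 and 0.41 and limma adjusted p between 0.0534 and 0.352.

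MRPL41, a mitochondria-specific large subunit protein, had log2 RPKM of 5.60 and 5.52 with shNT, 5.70 and 5.86 with shCENPA1, and 5.84 and 5.90 with shCENPA2 (log2 fold change 0.31, limma adjusted p = 0.043). MRPL15, a homologue of bacterial L15, stood at 5.63 and 5.53, then 5.69 and 5.90, then 5.96 and 5.86 (0.33, adjusted p = 0.049). MRPL35, a homologue of bacterial L35, stood at 4.46 and 4.43, then 4.53 and 4.53, then 4.73 and 4.71 (0.28, adjusted p = 0.044). MRPL35 had the narrowest spread of the 3, and its shCENPA1 values lay between the other groups; its call was also lost after quantile normalization (limma adjusted p = 0.0557) and with voom (0.0507). Exons of MRPS22 share 6378 bases with exons of COPB2 on the opposite strand, whose log2 fold changes were 0.00 (adjusted p = 0.988) and 0.13 (limma adjusted p = 0.385).

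By position in the ribosome, the 5 proteins of the stalks and the factor-binding region, where elongation factors dock, had the highest median with shCENPA1 at 0.261. With shCENPA2 their median was 0.127, and all 5 estimates were positive with both shRNAs, but 0 of 5 were called. MRPL12, the protein that also binds the mitochondrial RNA polymerase, had log2 fold changes of 0.45 (limma adjusted p = 0.123) and 0.29 (adjusted p = 0.229), and its shNT libraries differed by 0.41. MRPL53 stood at 0.34 (adjusted p = 0.257) and 0.35 (adjusted p = 0.164).

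The 8 proteins of the exit tunnel and its rim had medians of -0.023 and -0.051, with 0 and 1 called lower. The 7 proteins of the central protuberance had medians of -0.018 and -0.055, with 0 called. Both of the members that ranked below the controls in all knockdown libraries belong to these 2 groups, but they were only 2.6% of members, where 20.5% of all genes ranked so. Of all genes, 2.69% and 8.05% were called higher with shCENPA1 and shCENPA2, and 4.45% and 10.5% lower. Differences between the groups of proteins were not tested. The 18 other large subunit homologues of bacterial proteins had medians of 0.078 and 0.129, with 1 and 4 called higher. The 12 other large subunit proteins grouped here as particular to mitochondria, MRPS30 and MRPL58 among them, had medians of 0.089 and 0.008, with 0 and 1 called higher.

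In the small subunit, 14 homologues of bacterial proteins had medians of 0.104 and 0.157, with 1 and 2 called higher. The 9 proteins found only in mitochondria had medians of 0.113 and -0.009, with 0 and 1 called higher. MRPS36, which carries a ribosomal name but is now placed in the 2-oxoglutarate dehydrogenase complex, had log2 fold changes of 0.14 (limma adjusted p = 0.664) and 0.40 (adjusted p = 0.131). The symbols MRPS24 and MRPL56 had no row and were not analysed here. Whether these genes were listed under other symbols was not examined.

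Mitochondria hold 3 homologues of bacterial S18 that occupy different sites, MRPS18A in the large subunit and MRPS18B and MRPS18C in the small subunit. MRPS18A stood at 4.05 and 4.00 log2 RPKM with shNT, 4.16 and 4.43 with shCENPA1, and 4.14 and 3.96 with shCENPA2. MRPS18B stood at 4.19 and 4.05, then 4.27 and 4.22, then 4.31 and 4.11, and MRPS18C at 1.64 and 1.73, then 1.58 and 1.87, then 1.53 and 1.61. MRPS18C was the lowest of the 3 in every library, on a length of 7251 bases against 2491 for MRPS18A and 1888 for MRPS18B. None of the 3 passed the test, and their log2 fold changes ran from 0.04 to 0.27 with shCENPA1 and from -0.12 to 0.09 with shCENPA2 (smallest limma adjusted p = 0.201, MRPS18A with shCENPA1).

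None of the 3 highest and 3 lowest members was called. Of the highest, MRPS35 stood at 6.50 and 6.66 with shCENPA1 and at 6.30 and 6.58 with shCENPA2. MRPL51 stood at 6.30 and 6.56, then 6.34 and 6.34, and MRPS34 at 6.26 and 6.54, then 6.08 and 6.03. Both shCENPA2 libraries of MRPS34 were below both controls, and its difference between the shRNAs was -0.35 (SE 0.12, limma adjusted p = 0.229), the lowest among the members.

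Among the lowest, MRPL38 stood at -0.68 and -0.32 with shCENPA1 and at -0.54 and -1.01 with shCENPA2. MRPL46 stood at -0.43 and -0.42, then -0.07 and -0.20. MRPS6 stood at 0.18 and 0.48, then 0.05 and 0.01, with both shCENPA2 libraries below both controls (-0.34, limma adjusted p = 0.230). The SE was 0.24 for MRPL38, 0.20 for MRPL46 and 0.18 for MRPS6, against 0.11 for MRPL2.

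Many MRP genes start close to a neighbour read in the other direction. By GENCODE 44, 27 of 77 members (35.1%) had the start of a coding gene on the opposite strand within 1000 bp, as had 17.9% of 11974 coding genes tested. Starts on either side were counted as divergent, so that some of these genes overlap their neighbour and not all share a promoter region. Exons of MRPL51 and NCAPD2, for instance, share 383 bases. For 24 of these members at least 1 such neighbour was tested, which made 23 pairs, since MRPL46 and MRPS11 face each other. The difference in log2 fold change between neighbour and member was tested with limma over all 927 such pairs of coding genes. This comparison was chosen after seeing the values.

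With shCENPA1 the difference was called for 3 of the 23 pairs (13%), where 10.2% of all pairs were called. With shCENPA2 it was called for 4 pairs (17.4%), where 20.2% of all pairs were. Divergent pairs with an MRP gene were therefore called about as often as others. In each called pair the neighbour was the lower partner, and the MRP gene did not pass the test.

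MRPL57, a mitochondria-specific large subunit protein also known as MRP63, faces SKA3, which joins kinetochores to spindle microtubules. MRPL57 stood at 5.0 and 4.94 log2 RPKM with shNT, 4.84 and 5.02 with shCENPA1, and 4.98 and 4.87 with shCENPA2. SKA3 stood at 3.38 and 3.41, then 2.01 and 2.10, then 1.70 and 1.53. The groups of MRPL57 overlapped, whereas every knockdown library of SKA3 was over 1 log2 unit below the controls.

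The log2 fold change of MRPL57 was -0.04 with either shRNA (95% interval -0.26 to 0.17 for both). The difference between SKA3 and MRPL57 was -1.29 (SE 0.11, limma adjusted p = 0.00196) with shCENPA1 and -1.74 (SE 0.11, adjusted p = 0.000352) with shCENPA2. The RefSeq starts of the genes are 21176658 and 21176552 on chromosome 13. The 105 bases between them are given in capitals, within chr13:21176408-21176707 (plus strand, the direction of MRPL57, RefSeq, GRCh38.p14):
MRPL57: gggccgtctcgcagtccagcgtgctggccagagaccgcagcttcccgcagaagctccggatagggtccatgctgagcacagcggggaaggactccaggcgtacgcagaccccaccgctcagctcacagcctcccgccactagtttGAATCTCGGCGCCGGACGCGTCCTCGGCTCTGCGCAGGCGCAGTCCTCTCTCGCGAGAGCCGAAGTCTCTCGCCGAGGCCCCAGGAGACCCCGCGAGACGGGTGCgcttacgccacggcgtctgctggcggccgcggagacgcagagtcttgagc
The letters TTTGAA, the core of the cell cycle homology region (CHR) found in promoters of mitotic genes, begin at -108 from the start of MRPL57, and TTCCCGC, an E2F core, begins at -209. The TTCCCGC lies beyond the start of SKA3, within that gene.

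MRPL27, a homologue of bacterial L27 placed here with the central protuberance, faces EME1, a subunit of a structure-selective endonuclease of DNA repair. MRPL27 stood at 3.65 and 3.53 with shNT, 3.61 and 3.93 with shCENPA1, and 3.79 and 3.78 with shCENPA2. EME1 stood at 1.34 and 1.38, then 0.21 and 0.17, then -0.17 and -0.28. The difference was -1.36 (SE 0.15, limma adjusted p = 0.00336) with shCENPA1 and -1.79 (SE 0.15, adjusted p = 0.000601) with shCENPA2.

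Only 44 bases lie between the RefSeq starts of MRPL27 and EME1 (50373184 and 50373229 on chromosome 17), and they are in capitals within chr17:50373135-50373434 (minus strand, the direction of MRPL27, RefSeq, GRCh38.p14):
MRPL27: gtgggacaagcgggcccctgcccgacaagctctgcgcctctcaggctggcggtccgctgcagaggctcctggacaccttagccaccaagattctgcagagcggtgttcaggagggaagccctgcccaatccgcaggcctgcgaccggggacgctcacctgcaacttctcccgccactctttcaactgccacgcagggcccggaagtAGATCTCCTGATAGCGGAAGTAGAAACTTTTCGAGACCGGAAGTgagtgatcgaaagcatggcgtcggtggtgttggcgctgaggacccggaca
CCGGAAG begins at -52 and -8 from the start of MRPL27. TTTGAA and TTCCCGC were not found in this window on either strand. The window is set by the start of MRPL27 and covers only a part of the bases upstream of EME1, so that it does not describe the promoter of EME1. The calls of the SKA3 and EME1 pairs held with each library left out in turn, with adjusted p of at most 0.045 from limma.

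MRPL51 faces NCAPD2, a condensin subunit, at a distance of 485 bp, and their annotated exons share 383 bases. NCAPD2 stood at 4.78 and 4.75 with shNT, 4.00 and 3.85 with shCENPA1, and 4.04 and 3.87 with shCENPA2. The difference from MRPL51 was -0.94 (SE 0.16, limma adjusted p = 0.0124) and -0.82 (SE 0.16, adjusted p = 0.0133). Without shNT library 1 the adjusted p was 0.0892 and 0.0886, without shNT library 2 it was 0.0962 and 0.0907, and without shCENPA1 library 2 it was 0.055 with shCENPA1.

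MRPL13, a homologue of bacterial L13, faces MTBP, which is needed for the firing of replication origins. MRPL13 stood at 3.96 and 4.01, then 3.87 and 4.04, then 3.86 and 4.02, and MTBP at 0.03 and 0.35, then -0.26 and -0.51, then -0.62 and -0.64. The difference was -0.54 (SE 0.18, limma adjusted p = 0.134) with shCENPA1 and -0.76 (SE 0.18, adjusted p = 0.0276) with shCENPA2. With shCENPA2 it was not called without shNT library 1 (adjusted p = 0.0739), without shNT library 2 (adjusted p = 0.174) or without shCENPA2 library 2 (adjusted p = 0.0841).

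For the other pairs the difference was not called. With shCENPA1 it was largest for MRPL54 with APBA3 (-0.59, 95% interval -1.01 to -0.18, limma adjusted p = 0.0947). With shCENPA2 it was largest for MRPL50 with ZNF189 (0.44, 95% interval 0.14 to 0.74, limma adjusted p = 0.0534), where the neighbour was the higher partner. Also not called were MRPL36 with NDUFS6 (0.10 and 0.07) and MRPL47 with NDUFB5 (0.11 and -0.01). In these pairs both genes encode mitochondrial proteins, the neighbours being subunits of complex I. The 95% intervals reached from -0.19 to 0.38 and from -0.19 to 0.42 with shCENPA1. MRPL43 faces TWNK, the helicase of mitochondrial DNA, and their difference was 0.02 (95% interval -0.34 to 0.38) and -0.23 (95% interval -0.60 to 0.13). MRPL46 and MRPS11, both members, differed by 0.24 and -0.07. MRPL49 with FAU, which encodes a cytosolic ribosomal protein, differed by -0.22 and -0.28.

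**Figure D5:**
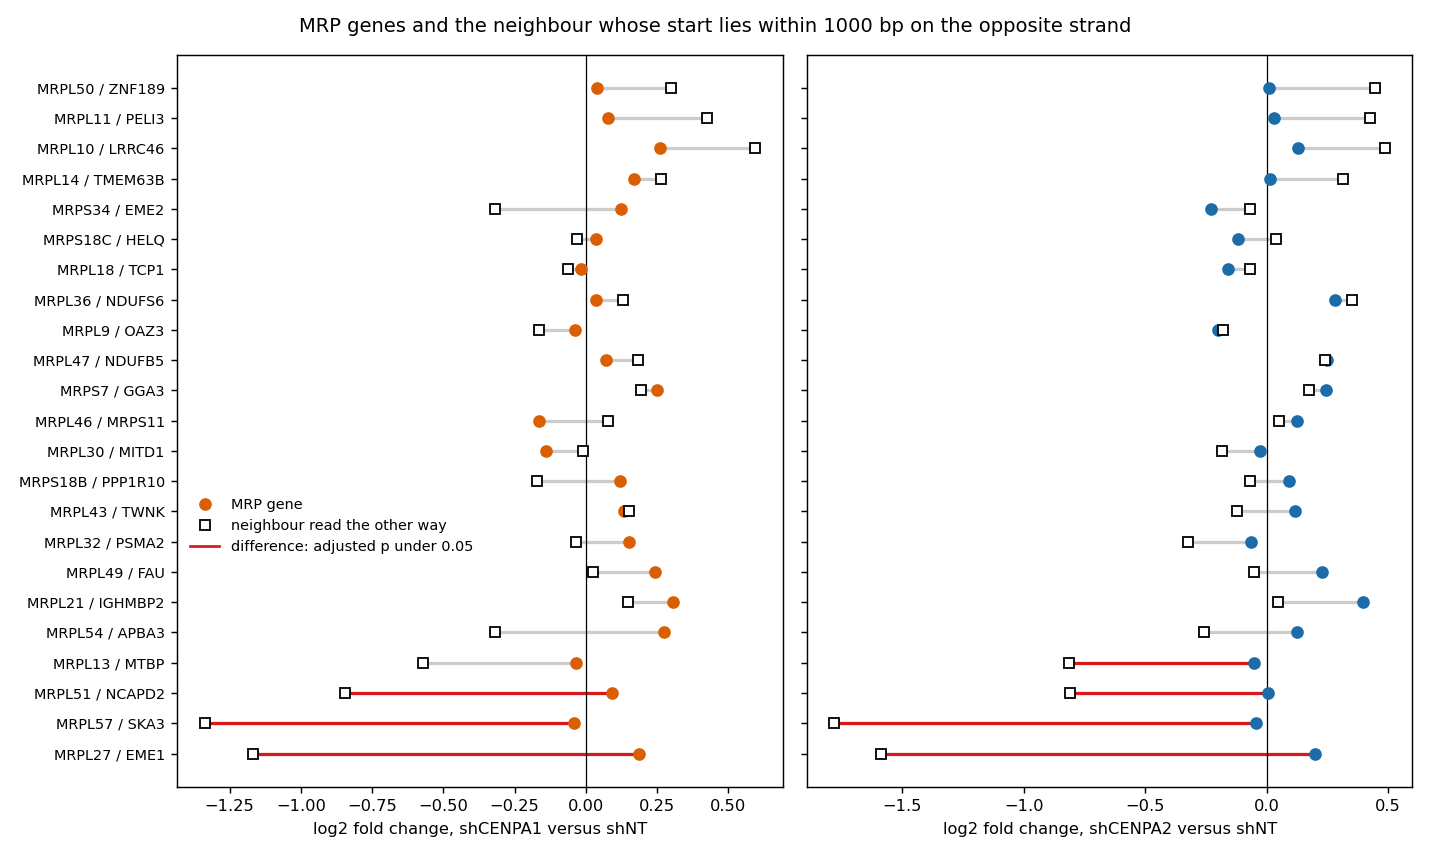
Log2 fold change against shNT (horizontal axes) with shCENPA1 (left) and shCENPA2 (right) for 23 pairs of an MRP gene (filled circles) and the neighbour whose start lies within 1000 bp on the opposite strand (open squares), each from 2 libraries per group. Red lines join pairs whose difference had an adjusted p under 0.05. SKA3 and EME1 lie farthest to the left, while MRPL57 and MRPL27 lie near 0.

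Promoters of the 68 members with a RefSeq promoter sequence were searched for 6 motifs on both strands, each on the 300 bases around the start. AAGATGGCG, which YY1 binds, occurred in 12 members (17.6%), against 4.7% of 10148 genes tested with a promoter and 1.75% of all 35116 promoter windows. CCGGAAG occurred in 30 members (44.1%), against 22.3% of genes and 10.26% of windows. CCAAT occurred in 23 members (33.8%, against 43.3% and 34.61%), and TTCCCGC in 10 (14.7%, against 12.9% and 6.55%). TTTGAA occurred in 5 (7.4%, against 13.3% and 15.16%). The NRF1 palindrome capitalized above in MRPL17 occurred in 1 (1.5%, against 2.7% and 1.24%). No test was made of these shares, and a match to letters is not a measured site.

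The YY1 letters are shown because they were the motif whose share among MRP genes stood furthest above that of all genes tested, by ratio. In 9 of the 12 members they began 6 to 35 bases after the start, and in 3 before it. Windows of 30 bases on GRCh38.p14 (RefSeq) with the letters, or their reverse complement, in capitals were as follows:
MRPL22 (chr5:154941093-154941122, plus strand): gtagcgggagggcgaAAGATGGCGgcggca
MRPL32 (chr7:42932143-42932172, plus strand): acccgcgctcCGCCATCTTtacccgaagag
MRPL36 (chr5:1799854-1799883, minus strand): ccccccccgcCGCCATCTTccttcctggca
MRPL38 (chr17:75904859-75904888, minus strand): ggccggagggAAGATGGCGgcgccctggtg
MRPL42 (chr12:93467512-93467541, plus strand): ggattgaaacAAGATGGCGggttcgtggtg
MRPL46 (chr15:88467361-88467390, minus strand): gggagaacgaAAGATGGCGgcgcccgtaag
MRPL50 (chr9:101398576-101398605, minus strand): gatctcatcgAAGATGGCGgcgcgatctgt
MRPL52 (chr14:22829779-22829808, plus strand): acgatgacccAAGATGGCGgagccgtgatt
MRPS10 (chr6:42217833-42217862, minus strand): cgggaccggcAAGATGGCGgcgcggacagc
MRPS18A (chr6:43687763-43687792, minus strand): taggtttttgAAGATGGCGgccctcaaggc
MRPS18B (chr6:30617853-30617882, plus strand): ggcgtacgtcAAGATGGCGgcgtctgtatt
MRPS30 (chr5:44808950-44808979, plus strand): atcgcgggcaAAGATGGCGgcggccaggtg
None of these 12 genes was called with either shRNA.

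Other genes of mitochondrial translation were examined by list, beside the shares of all genes called that are given above. A list of 6 genes held ribosomal proteins named under other symbols and OXA1L, the insertase to which the ribosome is tethered. Of these, 0 were called with shCENPA1. With shCENPA2 only OXA1L was called, and it was higher (log2 fold change 0.31, limma adjusted p = 0.035, up to 0.274 with 1 library left out). Of 25 genes of ribosome assembly, 0 were called with shCENPA1 and 1 was lower with shCENPA2, MTERF4, which acts with an rRNA methyltransferase (-0.67, adjusted p = 0.00732). MTERF4 stood at 3.66 and 3.72 with shNT, 3.10 and 3.27 with shCENPA1, and 3.20 and 2.83 with shCENPA2.

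Of 15 translation factors, 1 was lower with shCENPA1 and 3 were higher with shCENPA2. The lower one was GFM1, the elongation factor that drives translocation (-0.39, limma adjusted p = 0.046), which stood at 3.28 and 3.27 with shNT, 2.90 and 2.88 with shCENPA1, and 3.30 and 3.43 with shCENPA2. The higher ones were TUFM, which delivers aminoacyl-tRNA (0.50, adjusted p = 0.017), GFM2, which recycles ribosomes (0.37, adjusted p = 0.026), and TACO1, an activator of COX1 translation (0.35, adjusted p = 0.039). TUFM stood at 6.81 and 6.65, then 7.04 and 7.30, then 7.30 and 7.15, all knockdown libraries above the controls. Each of these 4 calls was lost without 1 or more single libraries, with limma adjusted p up to 0.370 for GFM1, 0.163 for TUFM, 0.258 for GFM2 and 0.310 for TACO1, and GFM1 kept its call in 5 of the 9 settings that left out no library.

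Among mitochondrial aminoacyl-tRNA synthetases, PARS2 was higher with shCENPA1 (0.40, limma adjusted p = 0.0499), and LARS2 was higher with shCENPA2 (0.51, adjusted p = 0.00368). Without single libraries the adjusted p reached 0.552 for PARS2, which kept its call in 4 of the 9 other settings, while LARS2 was called under every setting. Of 10 genes of mitochondrial DNA replication and transcription, 0 were called with either shRNA. Of 15 mitochondrially encoded transcripts, MT-ND6, the one protein-coding gene of the light strand, was lower with both, at 7.83 and 7.39 with shNT, 6.37 and 6.99 with shCENPA1, and 6.67 and 6.39 with shCENPA2 (-0.93, adjusted p = 0.026, and -1.08, adjusted p = 0.00627). With shCENPA1 the call of MT-ND6 was lost without shNT library 1 (adjusted p = 0.0818) or shCENPA1 library 1 (0.137). The other 14 were not called, and poly(A) selection affects how these transcripts are captured.

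Of 9 nuclear regulators of mitochondrial genes, 2 were called with both shRNAs. PPARGC1B, a coactivator of mitochondrial biogenesis, stood at 1.15 and 1.20 with shNT, 2.54 and 2.12 with shCENPA1, and 3.12 and 2.98 with shCENPA2. Its log2 fold change was 1.15 (limma adjusted p = 0.00178) and 1.87 (adjusted p = 4.81e-05). MYC, a transcription factor with many ribosomal and mitochondrial targets, stood at 4.86 and 4.79, then 4.46 and 4.50, then 3.71 and 3.58, with log2 fold changes of -0.35 (adjusted p = 0.049) and -1.18 (adjusted p = 3.66e-05). The call of MYC with shCENPA1 was lost without any 1 of the shNT or shCENPA1 libraries (adjusted p 0.114 to 0.344) and with median-centred libraries (0.0646).

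With shCENPA2 alone ESRRA, a nuclear receptor coactivated by PPARGC1B, was higher (0.51, limma adjusted p = 0.00957), as was NRF1 (0.42, adjusted p = 0.019). ESRRA was not called without shNT library 2 (adjusted p = 0.111), nor NRF1 without shNT library 1 (0.137), shNT library 2 (0.149) or shCENPA2 library 1 (0.0708). GABPA, the DNA-binding subunit of GABP, had log2 fold changes of -0.08 (adjusted p = 0.706) and -0.16 (adjusted p = 0.319), and YY1 of -0.11 (adjusted p = 0.538) and -0.16 (adjusted p = 0.265). PPARGC1B and MYC thus changed in opposite directions, and with shCENPA2 by more than any MRP gene, whose largest change was 0.68. Whether they bear on the MRP genes was not tested.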

How the data were processed

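Per the study's methods the authors ran Trim Galore, STAR (hg38), HTSeq and edgeR. Versions are not given in the sources used here. The authors deposited log2 RPKM per run. Run labels carry the library number and lane, and the lanes of a library were averaged. Whole reads were recovered from the steps of the log2 values (14828 of 14828 genes) and used for depth and 1 alternative. limma 3.58.1 (R 4.3.3; lmFit, eBayes with trend) was fitted to 14624 genes whose mean log2 RPKM reached -3, the 3 groups together. An exact permutation test of 2 against 2 libraries cannot go below 0.33. Divergent pairs were fitted without the trend. Both fits were tested on simulated data. Positions are from GENCODE 44 and promoters from RefSeq. Promoters were at hand for 68 of 77 members. Human MRP genes have many processed pseudogenes, and the loss of reads to them was not tested. Values are given per library for members called with both shRNAs, the S18 homologues and the 3 highest and 3 lowest members, and of other pathway genes for those called with both. Other genes were named after their values were seen. The values of 1 pathway gene are not reported here. The members and lists were chosen with earlier results of these data known.

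Alternatives were 1 added to RPKM, no filter or a floor of 0, median-centred or quantile-normalized libraries, the library number as a block, lanes with an estimated correlation, voom on recovered reads, removal of a length trend, and each library left out.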

Additional observations from a re-analysis of the deposited data

Results flagged for a closer look

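Of the genes examined beside the MRP genes, MYC differed between the shRNAs, by -0.84 on the log2 scale for shCENPA2 against shCENPA1 (limma adjusted p = 0.0027), and by -0.82 without shCENPA1 library 2 (0.0626). For another 3, both shCENPA1 libraries moved one way from both controls and both shCENPA2 libraries the other way, and these differences were not called. The values of shCENPA2 minus shCENPA1 were 0.47 for GFM1 (limma adjusted p = 0.0537), 0.19 for IARS2 (0.376), which encodes an isoleucyl-tRNA synthetase, and -0.27 for TWNK (0.263).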

How the results depend on the processing

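The median change of the members stayed between 0.048 and 0.107 with shCENPA1 and between 0.066 and 0.094 with shCENPA2 under the other settings. Leaving out 1 library took it from -0.016 to 0.182 with shCENPA1 and from 0.045 to 0.078 with shCENPA2. Members past 2-fold numbered 0 under every setting tried. Members higher with both shRNAs (2) numbered 1 with 1 added to RPKM, 6 with lanes as correlated replicates and 0 to 2 with 1 library left out. Members higher with shCENPA1 (2) numbered 1, 7 and 0 to 2 in the same order. Members higher with shCENPA2 (8) numbered 14 with lanes and 0 to 9 with 1 library left out, and members lower with shCENPA2 (1) numbered 0 with median-centred libraries, 2 with lanes and 0 to 1 with 1 library left out. Lanes raised the share of higher genes among all called with shCENPA1 from 37.6% to 48.5%. Divergent pairs called numbered 2 to 4 with shCENPA1 and 2 to 5 with shCENPA2 with 1 library left out.

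With the library number as a replicate block, 0 members were higher with both shRNAs, 0 with shCENPA1 and 4 with shCENPA2, and 0 were lower with shCENPA2. The numbers do not pair the libraries (correlations of deviations -0.064, -0.095 and -0.145). Among the members not called in the analysis reported, MRPL28 was called in 4 settings with shCENPA1 and 7 with shCENPA2. The standard error was 0.24 for MRPL38, the member with the fewest reads (199 to 326 per library), and 0.10 for MRPL51 (11773 to 20256 reads). How depth and the number of libraries share in the precision was not tested.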
